A study of Mus musculus with 4 samples.

Results

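Genes of DNA replication and of deoxynucleotide synthesis were examined in tumour macrophages, taken from mouse MCA fibrosarcoma and exposed in culture to exosomes, the small membrane vesicles that cells release. The set was a list of 52 gene symbols, looked up by Ensembl identifier in the authors' table of 53139 loci. Of these, 50 were found and had been tested by the authors, while Cdt1 and Gins2 were not analysed here. One group of 2 samples was given MEK1-hi exosomes. The other group, also of 2 samples, was given MEK1-low exosomes, and its treatment label carries GFP as well. MEK1 is the kinase that activates ERK. All 4 samples carry the same label of tumour macrophage, of cell line (9609 parent) and of WT genotype. The labels give neither an animal's age nor the cells that released the exosomes, and no untreated macrophages were among the samples. An effect of MEK1 content therefore cannot be told apart from one of GFP or of any other difference between the exosome preparations.

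Before a cell copies its DNA, the origin recognition complex, with Cdc6 and Cdt1, loads the ring-shaped MCM helicase onto origins, a step called licensing. Cdc45 and the GINS complex then switch the helicase on, the polymerases copy both strands behind it, and the clamp PCNA keeps them on the template. Enzymes such as ribonucleotide reductase and thymidylate synthase supply the deoxynucleotides. Many of these genes are transcribed together late in G1 by E2F factors, which are held back by RB until the cyclin D kinases act on it. Macrophages in tissues can divide, and growth factor signals through ERK are known to raise cyclin D1.

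The authors' table gives 1 level per group in FPKM (fragments per kilobase of transcript, scaled for library size), so levels of different genes can be set side by side, but no value per sample and no SD accompany them. A gene was called where the authors' Cuffdiff test had a q-value under 0.05. The q-values are the authors', in every case below. Nothing in the labels says that the 2 samples of a group were separate cultures or animals, so these q-values measure at most the spread between these samples, and that spread may be technical. The depth of each sample is unknown. Markers of the labelled cell type were abundant in both groups: the 11 macrophage genes lay between 48.0 and 13148 FPKM with MEK1-hi and between 47.5 and 12303 FPKM with MEK1-low exosomes. Among them Cd14 fell, to 136 FPKM with MEK1-hi against 213 FPKM with MEK1-low exosomes (q = 0.00349 by Cuffdiff in the authors' deposited table), while 10 of the 11 were not called and Fcgr1 stood at 153 FPKM with MEK1-hi and 107 FPKM with MEK1-low exosomes (q = 0.236 in that table). The part of these differences in the results was not tested. The 9 fibroblast and tumour mesenchyme markers, such as Col1a1 and Pdgfra, summed to 5.90 FPKM with MEK1-hi and 7.08 FPKM with MEK1-low exosomes, and the highest of them stood at 1.59 FPKM with MEK1-hi and 1.60 FPKM with MEK1-low exosomes. The 7 T cell markers summed to 0.882 FPKM with MEK1-hi and 0.798 FPKM with MEK1-low exosomes. Of 8 neutrophil markers, S100a8 stood at 22.6 FPKM with MEK1-hi and 35.5 FPKM with MEK1-low exosomes, and Ly6g, S100a9, Mpo, Elane and Ngp were listed at 0 in both.

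With MEK1-hi exosomes most replication genes had higher values, and 5 of the 7 called encode subunits of the MCM helicase. At a q-value under 0.01, 4 members were called, 2 of them MCM subunits. Of the 50 members tested, 7 rose and 0 fell in the authors' deposited table. Over all 12648 loci tested, 0.751% were called higher and 1.69% lower, or 2.44% in either direction. The 7 were 5 of the 6 helicase subunits (Mcm2, Mcm3, Mcm4, Mcm5 and Mcm6), the fork protection gene Timeless and Cdca7l, listed under chromatin and methylation. Values were higher with MEK1-hi exosomes in 41 members (82% of 50), against 50.2% of all tested loci, and lower in 9. The median difference was 0.28 on the log2(FPKM + 1) scale over the 50 members and 0.00 over all tested loci. A difference above 0.40, exceeded by 5% of all tested loci, was reached by 18 members (36%). At an unadjusted p under 0.05 by Cuffdiff, 15 members were higher and 0 lower, while 3.53% of all tested loci were higher and 5.12% lower by that rule. The members were chosen with earlier results of these data known, so these shares describe this list and are not a test of it. Of 34 further replication loci, described below, 0 were called. In bulk RNA, more cells in S phase and more RNA of the member genes per cell cannot be told apart.

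**Figure D1:**
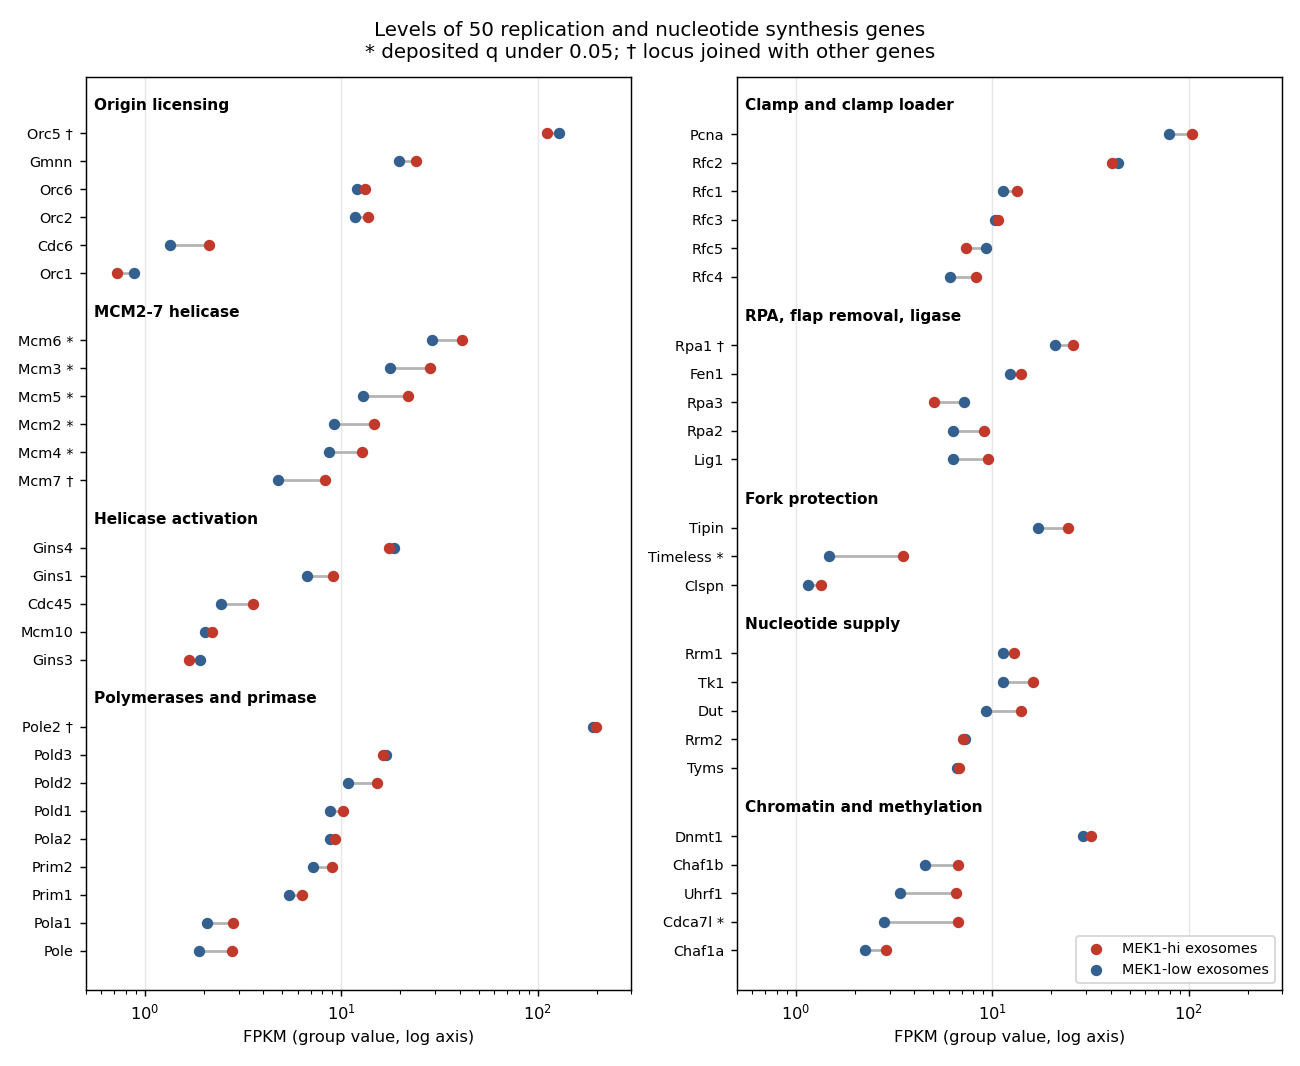
Group levels in FPKM (log axis) of the 50 members found, ordered by role and, within a role, by level with MEK1-low exosomes; each point is 1 group value and no error can be drawn. All 6 MCM subunits sit further right with MEK1-hi exosomes, whereas Rrm2, Tyms, Pold3 and Gins4 nearly coincide.

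**Figure D2:**
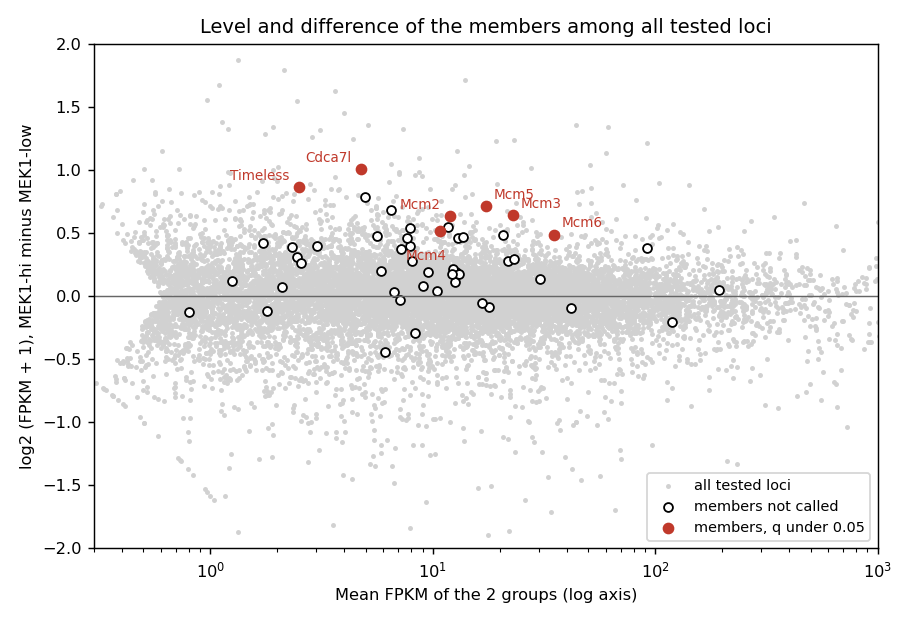
Mean FPKM of both groups (log axis) against the difference on the log2(FPKM + 1) scale for all tested loci (88 of 12648 lie outside the axes) and the 50 members. The 7 called members run from 0.49 for Mcm6 to 1.01 for Cdca7l, and the 2 with the largest differences, Cdca7l and Timeless, have low levels.

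The promoters of 4 of the 5 called helicase subunits are shown because these genes rose together. They are the 250 bases before the annotated start in RefSeq (build GRCm38.p6, which shares its coordinates with mm10), read 5′ to 3′ on the gene's strand. Capitals mark E2F-type matches (TTTGGCG or TTTCGCG on either strand) and CCAAT boxes (CCAAT on either strand), the element bound by NF-Y. The windows were chr8:75109259-75109508 on the plus strand for Mcm5, chr1:128359706-128359955 on the minus strand for Mcm6, chr1:20820313-20820562 on the minus strand for Mcm3 and chr6:88898781-88899030 on the minus strand for Mcm2.
Mcm5: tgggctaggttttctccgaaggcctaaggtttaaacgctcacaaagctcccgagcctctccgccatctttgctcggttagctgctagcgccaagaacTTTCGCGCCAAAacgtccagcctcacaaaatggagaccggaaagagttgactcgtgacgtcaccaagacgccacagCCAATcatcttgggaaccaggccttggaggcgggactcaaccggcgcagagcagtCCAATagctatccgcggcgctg
Mcm6: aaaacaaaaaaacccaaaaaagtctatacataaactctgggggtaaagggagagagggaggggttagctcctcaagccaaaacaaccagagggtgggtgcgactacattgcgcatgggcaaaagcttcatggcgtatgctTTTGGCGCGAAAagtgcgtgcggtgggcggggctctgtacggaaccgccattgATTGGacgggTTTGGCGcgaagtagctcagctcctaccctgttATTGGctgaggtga
Mcm3: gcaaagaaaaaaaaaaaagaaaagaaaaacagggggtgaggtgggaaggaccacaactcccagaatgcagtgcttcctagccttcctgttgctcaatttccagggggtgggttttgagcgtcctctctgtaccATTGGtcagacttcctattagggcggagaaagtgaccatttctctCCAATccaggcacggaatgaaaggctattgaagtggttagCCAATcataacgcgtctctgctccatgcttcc
Mcm2: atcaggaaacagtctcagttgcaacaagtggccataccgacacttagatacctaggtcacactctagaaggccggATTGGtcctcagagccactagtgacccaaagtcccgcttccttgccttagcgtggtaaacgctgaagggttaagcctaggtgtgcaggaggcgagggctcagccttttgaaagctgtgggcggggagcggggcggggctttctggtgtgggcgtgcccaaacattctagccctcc
Mcm5 and Mcm6 each hold a run in which 2 E2F-type matches on opposite strands overlap, and Mcm6 has a further match 47 bases before its start. In Mcm3 the match begins 38 bases after the start, outside the stretch printed. Mcm2 has no E2F-type match in its window but a CCAAT box. A match is a stretch of letters and does not show that a factor binds there. Nor does a missing match show that no E2F site is there, since only these 2 forms were searched.

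Promoter windows of 300 bases (250 before and 50 after the start) were found for 42 of the 50 members, in 51 windows. Those without one were Gmnn, Mcm4, Gins1, Gins4, Prim2, Pole, Rfc2 and Tipin. An E2F-type match stood in 16 of the 51 windows (31.4%), against 4.10% of 11760 windows of genes tested here and 2.37% of all 32851 windows. A CCAAT box stood in 60.8% of member windows, against 37.6% of windows of tested genes and 37.4% of all windows. The CHR-type element TTTGAA, known from promoters of mitotic genes, stood in 11.8% of member windows and in 12.3% and 17.9% of those backgrounds. Both an E2F-type match and a CCAAT box were held by 13 member windows (25.5%), against 1.74% of windows of tested genes. The 16 members with an E2F-type match had a median difference of 0.28 on the log2(FPKM + 1) scale, with 3 called higher, and the 26 without one had 0.21, also with 3 called higher. Those 26 may hold E2F sites of other forms, which were not searched. Timeless held none of the 3 motifs in its window.

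**Figure D3:**
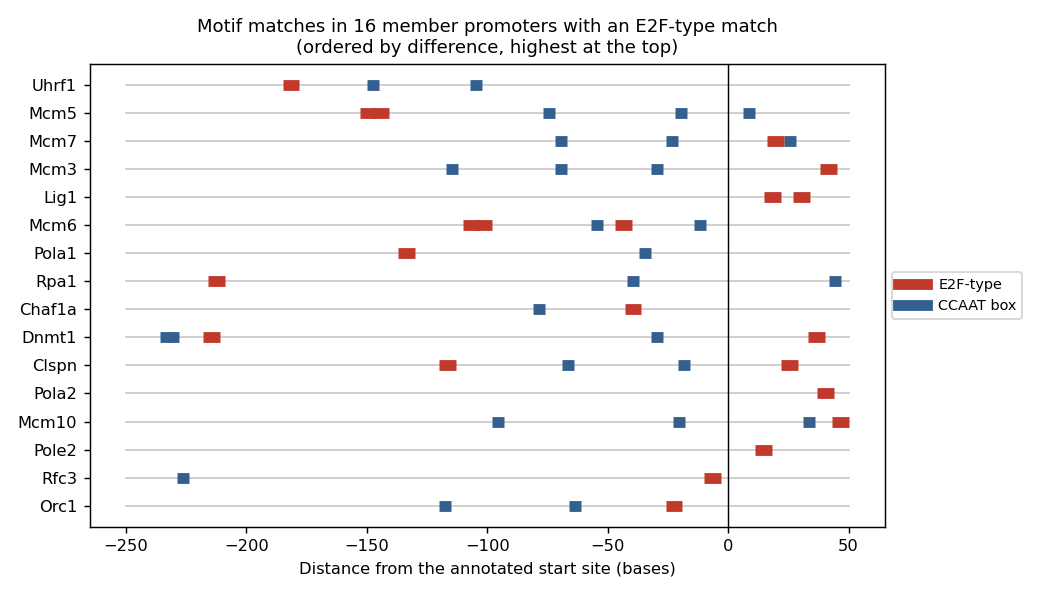
Matches to the E2F-type and CCAAT motifs by distance in bases from the annotated start site, for the 16 members with an E2F-type match, ordered from the highest difference (Uhrf1) to the lowest (Orc1). CCAAT boxes recur upstream of the starts of Mcm5, Mcm7, Mcm3 and Mcm6, and E2F-type matches lie on both sides of the start.

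Licensing was followed through the origin recognition complex, its loading partner Cdc6 and the inhibitor geminin, and 0 of the 6 members tested were called. Of all tested loci 2.44% were called in either direction, so 0 calls in this or another small role does not set it apart. Cdc6 stood at 2.13 FPKM with MEK1-hi and 1.34 FPKM with MEK1-low exosomes (p = 0.0199, q = 0.338 by Cuffdiff in the authors' deposited table). Gmnn, which encodes geminin and blocks Cdt1 after origins have fired, stood at 24.1 FPKM with MEK1-hi and 19.7 FPKM with MEK1-low exosomes. The origin complex subunits among the members had values on both sides without a call. Orc3 and Orc4, read in a related list, were not called either. They stood at 23.3 and 19.1 FPKM with MEK1-hi and at 19.1 and 21.2 FPKM with MEK1-low exosomes. Orc2 stood at 13.6 FPKM with MEK1-hi and 11.8 FPKM with MEK1-low exosomes, and Orc6 at 13.1 FPKM with MEK1-hi and 12.1 FPKM with MEK1-low exosomes. In Orc2, 29.8% of exonic bases overlap exons of the antisense gene Nif3l1. Orc1 stood at 0.723 FPKM with MEK1-hi and 0.879 FPKM with MEK1-low exosomes, the lowest level among the members in both groups. Orc5 stood at 111 FPKM with MEK1-hi and 128 FPKM with MEK1-low exosomes, but its locus is joined with Gm15421, so this level cannot be given to Orc5 alone.

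The MCM genes encode the subunits of the hexamer that unwinds DNA at the fork. Mcm5 (chromosome 8, 75109569 to 75128439, mm10) rose 1.69-fold, to 21.8 FPKM with MEK1-hi against 12.9 FPKM with MEK1-low exosomes (q = 0.00349 by Cuffdiff in the authors' deposited table). Mcm2 (chromosome 6, 88883474 to 88898780) rose 1.61-fold, to 14.7 FPKM with MEK1-hi against 9.13 FPKM with MEK1-low exosomes (q = 0.00349 in the authors' deposited table). Both q-values are those of the smallest p in the table, 5e-05, which 181 loci share. The same holds for the q-values given for Timeless, Cdca7l, Ccnd1 and Cd14.

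The remaining called subunits had ratios below that of Mcm2. Mcm3 (chromosome 1, 20802968 to 20820312) rose 1.59-fold, to 28.2 FPKM with MEK1-hi against 17.7 FPKM with MEK1-low exosomes (q = 0.0362 in the authors' deposited table). Mcm4 (chromosome 16, 15623897 to 15637400) rose 1.48-fold, to 12.8 FPKM with MEK1-hi against 8.67 FPKM with MEK1-low exosomes (q = 0.0157 in the authors' deposited table). Mcm6 (chromosome 1, 128331590 to 128359664) rose 1.42-fold, to 41.2 FPKM with MEK1-hi against 29.1 FPKM with MEK1-low exosomes (q = 0.0362 in the authors' deposited table). The calls of Mcm3, Mcm4 and Mcm6 ended at a q-value under 0.01, which left 2 of the 6 subunits called. No exon of another gene overlaps the exons of these 5 in GENCODE M21.

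Mcm7, the sixth subunit, had the highest ratio of the 6 but was not called. It stood at 8.26 FPKM with MEK1-hi and 4.76 FPKM with MEK1-low exosomes, a ratio of 1.73 (p = 0.0901, q = 0.761 by Cuffdiff in the authors' deposited table). Its locus is joined with the microRNA genes Mir25 and Mir93, which lie within Mcm7, and 12.6% of its exonic bases overlap exons of other genes. The test statistic was 0.960 for Mcm7, while it ran from 2.34 to 3.27 for the 5 called subunits. Although the subunits assemble in equal numbers, their transcript levels per length ran from 41.2 FPKM for Mcm6 to 8.26 FPKM for Mcm7 with MEK1-hi exosomes and from 29.1 to 4.76 FPKM with MEK1-low exosomes. The order was the same in both groups: Mcm6, Mcm3, Mcm5, Mcm2, Mcm4 and Mcm7. The median difference of the 6 was 0.64 on the log2(FPKM + 1) scale, and that of the 44 other members tested was 0.21. Of those 44, 2 were called higher (4.55%) and 35 had higher values.

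**Figure D4:**
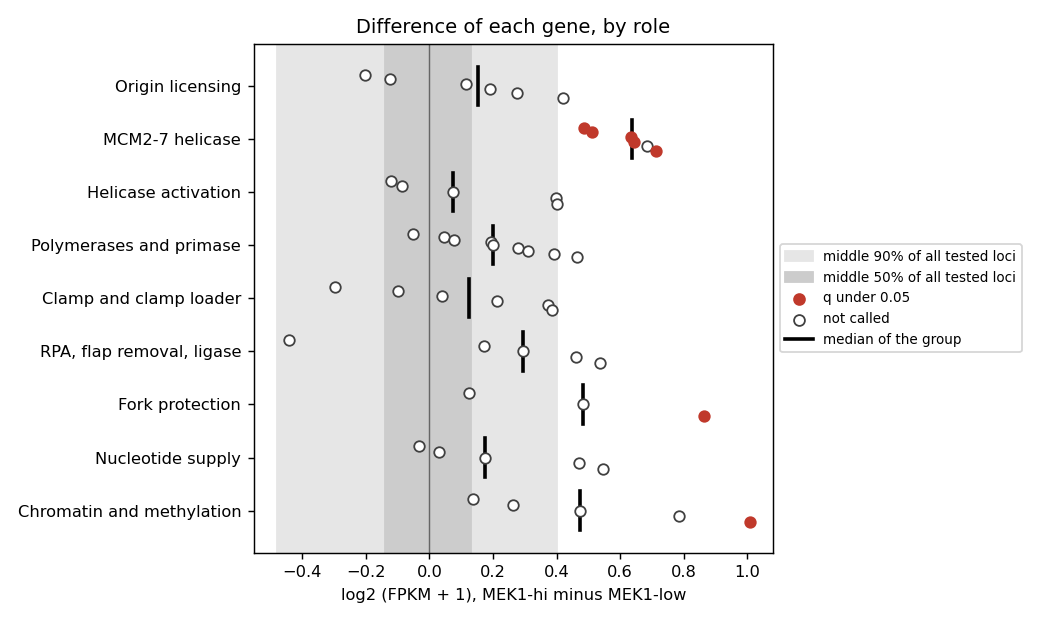
Difference of each member on the log2(FPKM + 1) scale, by role, with the group's median as a bar and the middle 50% and 90% of all tested loci shaded. The 6 MCM points, from 0.49 to 0.71, lie above the shaded range, which ends at 0.40, whereas helicase activation has a median of 0.07 over its 5 genes (0.16 over the 2 of at least 5 FPKM).

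The factors that switch the loaded helicase on showed no call among 5 tested. Gins4 and Gins3, subunits of GINS, stood at 17.4 and 1.68 FPKM with MEK1-hi and at 18.5 and 1.92 FPKM with MEK1-low exosomes. Gins1, of the same complex, stood at 9.12 FPKM with MEK1-hi and 6.68 FPKM with MEK1-low exosomes (p = 0.0558, q = 0.604 by Cuffdiff in the authors' deposited table). Cdc45, which travels with the helicase, stood at 3.56 FPKM with MEK1-hi and 2.45 FPKM with MEK1-low exosomes. Mcm10, a helicase activator that is not part of the hexamer, stood at 2.19 FPKM with MEK1-hi and 2.03 FPKM with MEK1-low exosomes. The median difference of these 5 was 0.07 on the log2(FPKM + 1) scale, and 0.16 over the 2 of at least 5 FPKM in either group.

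Polymerase and primase genes had higher values in 8 of 9 members and 0 calls. The median difference was 0.20 on the log2(FPKM + 1) scale. Without the joined locus of Pole2 it was 0.24, and 87.5% of 8 members had higher values. Pold2, the second subunit of the lagging strand polymerase delta, stood at 15.3 FPKM with MEK1-hi and 10.8 FPKM with MEK1-low exosomes. Pold1, its catalytic subunit, stood at 10.2 FPKM with MEK1-hi and 8.80 FPKM with MEK1-low exosomes. Pold3 was the member with a lower value, at 16.3 FPKM with MEK1-hi and 16.9 FPKM with MEK1-low exosomes. Of the 3 delta subunits among the members, Pold1 and Pold2 thus had higher values and Pold3 was nearly level, and none was called. The delta subunit Pold4 was read in a related list. Its locus, joined with Clcf1 and a predicted gene, stood at 81.9 FPKM with MEK1-hi and 80.2 FPKM with MEK1-low exosomes.

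Pole, the catalytic subunit of the leading strand polymerase epsilon, stood at 2.79 FPKM with MEK1-hi and 1.89 FPKM with MEK1-low exosomes. Pola1, the catalytic subunit of the polymerase that starts each strand, stood at 2.81 FPKM with MEK1-hi and 2.08 FPKM with MEK1-low exosomes (p = 0.0307, q = 0.447 by Cuffdiff in the authors' deposited table). Its partners were closer between the groups, Pola2 at 9.33 FPKM with MEK1-hi and 8.79 FPKM with MEK1-low exosomes. The primase subunits Prim1 and Prim2 stood at 6.34 and 8.94 FPKM with MEK1-hi and at 5.39 and 7.19 FPKM with MEK1-low exosomes. The Pole2 locus, at 197 FPKM with MEK1-hi and 191 FPKM with MEK1-low exosomes, is joined with Rpl36al, Dnaaf2 and predicted genes, and its level cannot be given to Pole2.

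Of the clamp and its loader, 0 of 6 were called. Pcna, the sliding clamp, stood at 104 FPKM with MEK1-hi and 79.3 FPKM with MEK1-low exosomes (p = 0.0095, q = 0.215 by Cuffdiff in the authors' deposited table). Its processed copy Pcna-ps2 was listed at 303 FPKM with MEK1-hi and 252 FPKM with MEK1-low exosomes, so reads may be split between them and the level of Pcna is uncertain. The loader subunits had values on both sides without a call. Rfc4 stood at 8.23 FPKM with MEK1-hi and 6.12 FPKM with MEK1-low exosomes, and Rfc5 at 7.37 FPKM with MEK1-hi and 9.28 FPKM with MEK1-low exosomes. Rfc1, the large subunit, stood at 13.3 FPKM with MEK1-hi and 11.3 FPKM with MEK1-low exosomes, and Rfc3 at 10.7 FPKM with MEK1-hi and 10.4 FPKM with MEK1-low exosomes. Rfc2, the most abundant of the 5, stood at 40.5 FPKM with MEK1-hi and 43.4 FPKM with MEK1-low exosomes, with 15.1% of its exonic bases shared with the antisense gene Lat2. The median difference of the 6 was 0.12 on the log2(FPKM + 1) scale.

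Single-strand binding and the joining of Okazaki fragments gave 0 calls among 5 members. Lig1, the ligase that seals those fragments, came nearest, at 9.56 FPKM with MEK1-hi and 6.28 FPKM with MEK1-low exosomes (p = 0.00245, q = 0.0822 by Cuffdiff in the authors' deposited table). Fen1, which trims the flaps before ligation, stood at 14.0 FPKM with MEK1-hi and 12.3 FPKM with MEK1-low exosomes, but 84.2% of its exonic bases overlap antisense genes, among them Tmem258. The values of the RPA subunits did not share a direction, and none was called. Rpa2 stood at 9.04 FPKM with MEK1-hi and 6.30 FPKM with MEK1-low exosomes (p = 0.0113, q = 0.240 by Cuffdiff in the authors' deposited table). Rpa3 had the most negative difference of the 50 members, at 5.03 FPKM with MEK1-hi and 7.19 FPKM with MEK1-low exosomes (p = 0.0996, q = 0.787 by Cuffdiff in the authors' deposited table). The Rpa1 locus, joined with the predicted gene Gm47300, stood at 25.8 FPKM with MEK1-hi and 20.8 FPKM with MEK1-low exosomes.

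Among the fork protection genes, Timeless had the highest ratio of all members. It encodes the partner of Tipin in a complex that travels with the fork and steadies it. Timeless (chromosome 10, 128232065 to 128252941) rose 2.37-fold, to 3.52 FPKM with MEK1-hi against 1.48 FPKM with MEK1-low exosomes (q = 0.00349 by Cuffdiff in the authors' deposited table). Its test statistic was 1.95, and the call ended where an absolute statistic of at least 2 was required. Tipin stood at 24.4 FPKM with MEK1-hi and 17.1 FPKM with MEK1-low exosomes (q = 0.704 in the authors' deposited table). Clspn, which encodes claspin, the adaptor that relays fork stress to the kinase CHK1, stood at 1.35 FPKM with MEK1-hi and 1.16 FPKM with MEK1-low exosomes.

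The enzymes of nucleotide supply were not called, 0 of 5, and fell into higher and nearly level members. With 2.44% of all tested loci called in either direction, 0 of 5 does not set them apart from other loci. Dut, the dUTPase that keeps uracil out of DNA, stood at 14.0 FPKM with MEK1-hi and 9.31 FPKM with MEK1-low exosomes (p = 0.0051, q = 0.141 by Cuffdiff in the authors' deposited table). Tk1, the thymidine kinase of S phase, stood at 16.1 FPKM with MEK1-hi and 11.3 FPKM with MEK1-low exosomes (p = 0.488 by Cuffdiff in the authors' deposited table). The ribonucleotide reductase subunits were close between groups. Rrm1 stood at 13.0 FPKM with MEK1-hi and 11.4 FPKM with MEK1-low exosomes, and Rrm2, the subunit that varies with the cell cycle, at 7.06 FPKM with MEK1-hi and 7.25 FPKM with MEK1-low exosomes. Tyms, which makes thymidylate, stood at 6.78 FPKM with MEK1-hi and 6.62 FPKM with MEK1-low exosomes. A q-value above the threshold does not show that these genes were equal.

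The 5 members listed under chromatin and DNA methylation all had higher values, and 1, Cdca7l, was called. A role of Cdca7l at the fork is not assumed here. The other members of the group, which rebuild chromatin and DNA methylation behind the fork, were not called. Cdca7l (chromosome 12, 117804289 to 117878706), a relative of the MYC target Cdca7, rose 2.37-fold, to 6.67 FPKM with MEK1-hi against 2.82 FPKM with MEK1-low exosomes (q = 0.00349 by Cuffdiff in the authors' deposited table). Exons of the antisense genes Dnah11 and Gm20613 overlap 22.4% of its exonic bases. Uhrf1, which brings the methyltransferase to newly copied DNA, stood at 6.54 FPKM with MEK1-hi and 3.38 FPKM with MEK1-low exosomes, a ratio of 1.94 (p = 0.003, q = 0.0975 by Cuffdiff in the authors' deposited table). Its partner Dnmt1, the maintenance methyltransferase, stood at 31.8 FPKM with MEK1-hi and 28.8 FPKM with MEK1-low exosomes. The histone chaperone subunits Chaf1b and Chaf1a stood at 6.70 and 2.89 FPKM with MEK1-hi and at 4.55 and 2.24 FPKM with MEK1-low exosomes. Exons of the antisense gene Ubxn6 overlap 52.5% of the exonic bases of Chaf1a. The median difference of the 5 was 0.47 on the log2(FPKM + 1) scale.

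Higher values were found among abundant and scarce members alike. Among members in loci of a single gene, the 21 with a mean of at least 10 FPKM had a median difference of 0.28 on the log2(FPKM + 1) scale with 18 higher values, and the 25 below it a median of 0.28 with 20 higher values. Of the 7 calls, 5 were among the more abundant genes.

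Related lists were then read beside the members, each with its count over the loci tested. With 2.44% of all tested loci called in either direction, 0 calls in a list of this size does not set it apart. Of 34 further replication loci, such as origin subunits, kinases and topoisomerases, 0 were called, 25 had higher values and the median difference was 0.13 on the log2(FPKM + 1) scale. Their highest levels were in joined loci, Tonsl with Vps28 at 102 FPKM with MEK1-hi and 110 FPKM with MEK1-low exosomes, and Donson with Atp5o at 96.1 FPKM with MEK1-hi and 103 FPKM with MEK1-low exosomes. Chosen after its values were seen, Cdca7 stood at 5.92 FPKM with MEK1-hi and 3.82 FPKM with MEK1-low exosomes (p = 0.0402, q = 0.512 by Cuffdiff in the authors' deposited table). Of 31 further loci of nucleotide metabolism, 0 were called, 24 had higher values and the median was 0.12. Samhd1, which breaks deoxynucleotides down, stood at 164 FPKM with MEK1-hi and 204 FPKM with MEK1-low exosomes, and the joined locus of Nme1 and Nme2 at 198 FPKM with MEK1-hi and 209 FPKM with MEK1-low exosomes.

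Of 18 genes of the E2F, RB and DREAM system tested, 0 were called, 13 had higher values and the median was 0.12 on the log2(FPKM + 1) scale, or 0.18 over the 10 of at least 5 FPKM in either group. E2f4, a repressive E2F, stood at 41.5 FPKM with MEK1-hi and 39.0 FPKM with MEK1-low exosomes, and Rb1 at 18.6 FPKM with MEK1-hi and 15.6 FPKM with MEK1-low exosomes. The activators E2f2 and E2f3, chosen after their values were seen, stood at 4.98 and 8.17 FPKM with MEK1-hi and at 3.69 and 6.36 FPKM with MEK1-low exosomes (q = 0.341 for E2f2 and q = 0.455 for E2f3 in the authors' deposited table).

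Of 18 G1 and S cyclins, kinases and inhibitors, 1 was called higher and 0 lower. Ccnd1, which encodes cyclin D1, rose 2.08-fold, to 69.1 FPKM with MEK1-hi against 33.2 FPKM with MEK1-low exosomes (q = 0.00349 by Cuffdiff in the authors' deposited table). Its kinase partner Cdk4 stood at 93.7 FPKM with MEK1-hi and 82.3 FPKM with MEK1-low exosomes, and the inhibitor Cdkn1a at 95.6 FPKM with MEK1-hi and 78.7 FPKM with MEK1-low exosomes. The median of this list was 0.16 on the log2(FPKM + 1) scale.

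Mitotic genes had values on both sides. Of 27 tested, 0 were called, 15 had higher and 12 lower values, and the median difference was 0.05 on the log2(FPKM + 1) scale. Cdk1, the kinase that drives mitosis, stood at 20.9 FPKM with MEK1-hi and 22.4 FPKM with MEK1-low exosomes, and Cenpa, the centromeric histone, at 10.3 FPKM with MEK1-hi and 13.6 FPKM with MEK1-low exosomes. Over the 8 of at least 5 FPKM in either group, the mitotic median was -0.13. Of 18 checkpoint and repair loci, 0 were called, 14 had higher values and the median was 0.30. It was 0.05 over the 6 of at least 5 FPKM. The most abundant were Atrip, joined with Trex1, at 107 FPKM with MEK1-hi and 129 FPKM with MEK1-low exosomes, and the deubiquitinase gene Usp1, at 11.3 FPKM with MEK1-hi and 10.1 FPKM with MEK1-low exosomes. From the same list, chosen after their values were seen, Ung, which removes uracil from DNA, stood at 2.85 FPKM with MEK1-hi and 1.56 FPKM with MEK1-low exosomes, and Rad18, a ligase of damage tolerance, at 3.03 FPKM with MEK1-hi and 1.86 FPKM with MEK1-low exosomes (q = 0.204 for Ung and q = 0.113 for Rad18 in the authors' deposited table). The difference between lists was not tested, since samples could not be separated.

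**Figure D5:**
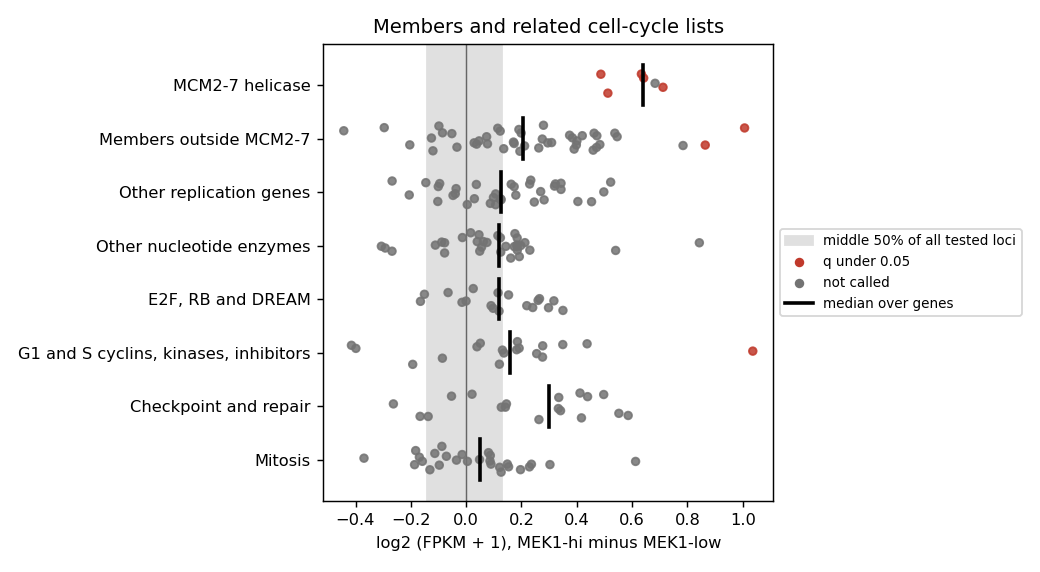
Difference of each gene on the log2(FPKM + 1) scale for the MCM helicase, the other members and 6 related lists, with the median of each as a bar. The MCM median of 0.64 stands to the right of the other members (0.21). The mitotic median of 0.05 lies within the middle 50% of all tested loci. Those of the other replication, nucleotide and E2F lists (0.12 to 0.13) do as well. The medians of checkpoint and repair (0.30) and of G1 and S genes (0.16) lie above that range.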

How the data were processed

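Poly(A) RNA was sequenced from 4 samples, 2 per group. Per the submitters' processing notes, FastQC 0.73, TopHat, Cufflinks, Cuffdiff and the build mm10 were used, and settings are not given in the sources used here. The authors deposited 1 FPKM value per group and locus, a Cuffdiff test score, and a p-value with its q-value. The FPKM columns headed MEK1 exo and GFP exo were matched to the groups through the treatment labels. Ratios are of deposited FPKM, and differences and medians use log2(FPKM + 1), which understates the change of low genes. Adjusting the authors' p-values by Benjamini-Hochberg over the 12648 tested loci gave their q-values to within 5.19e-07. Of 55082 gene identifiers, 54824 matched a symbol. Loci that join several genes (871 of those tested) were kept and named. Libraries were stranded per the labels' protocols, but the strand setting is not given. Antisense overlaps from GENCODE M21 are therefore named where they cover 15.1% of exonic bases or more. Smaller ones, such as 12.7% for Rfc4 and 10.8% for Orc1, are mostly not named. Scripts ran in Python 3.11.15 with pandas 2.3.3 and were tested on simulated data. Where a gene had several loci, the tested one of highest level was used, and joined loci count once in a related list.

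The members, gene lists, motifs, tests and alternatives were chosen with earlier results of these data known. All called members were named, as were the most abundant genes of each related list. The related genes marked as chosen after their values were seen all had higher values with MEK1-hi exosomes. Comparison of MCM proteins was not made.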

Additional observations from a re-analysis of the deposited data

How the results depend on the processing

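Counts were recomputed with other thresholds, a minimum on the test statistic, adjustment over abundant loci only and without joined loci, and medians with other pseudocounts, filters and scalings. With q under 0.01 in the authors' deposited table, 4 members remained called higher (Cdca7l, Mcm2, Mcm5 and Timeless), against 7 at the threshold used, and over all tested loci 59 were called higher, against 95. The other thresholds gave between 6 and 9 members called higher, and 0 were lower in any setting. Over all loci tested in those settings (8831 to 12648), between 88 and 125 were called higher and between 203 and 268 lower. The median difference of the members ran from 0.28 to 0.31 and their share of higher values from 82% to 83.7%. Timeless lost its call where the statistic had to reach 2, and also when adjusted over loci of at least 5 FPKM, a level it did not reach. Of 63 recomputed role medians, 62 stayed within 1.5 times, the exception being helicase activation at 0.16 over loci of at least 5 FPKM, and of 42 list medians 36 did. Equalising the FPKM totals without the 10 highest loci shifted all differences by less than 0.1. No paired analysis was possible because the file holds 1 value per group, and for the same reason no sample could be left out. Precision is limited by 2 samples per group and an unknown depth.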
